A study of Homo sapiens with 6 samples.

Results

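Respiratory complex I, the NADH:ubiquinone oxidoreductase, is the entry point of electrons from NADH into the mitochondrial respiratory chain. Its core subunits carry flavin and iron-sulfur clusters in a matrix arm or pump protons in a membrane arm, its accessory subunits surround and stabilize that core, and assembly factors help to build the complex without staying in it. The proton-pumping core subunits are encoded by mitochondrial DNA, and the rest by nuclear genes. The nuclear genes were taken from the deposited annotation as every protein-coding row whose symbol begins with NDUFA, NDUFB, NDUFC, NDUFS or NDUFV, which includes the NDUFAF assembly factors, and 48 of the 62710 rows met this rule. They comprised 7 core subunits, 30 accessory subunits, 8 assembly factors and 3 genes that share the naming but lie outside complex I: NDUFA4, which is now counted with cytochrome c oxidase, its paralog NDUFA4L2, and the readthrough gene NDUFC2-KCTD14. Of the 48 genes, 47 had enough counts to be tested among 16753 genes in all, while NDUFC2-KCTD14 had 6 counts in all, from sh-IGF2BP3 1 alone, and was not tested.

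The cells were HCT116, a human colon cancer line of epithelial origin. A lentivirus brought in either a scrambled shRNA (sh-NC) or an shRNA against IGF2BP3 (sh-IGF2BP3), an RNA-binding protein that reads m6A marks, and infected cells were selected with puromycin, so both groups carry a lentiviral insert and went through selection. Each group had 3 RNA libraries of total RNA made with a TruSeq RNA kit, and a single shRNA sequence stood for the knockdown. The study describes the libraries as pairs of control and knockdown cells without saying what paired them, and nothing says that libraries of a group came from separate cultures, so the p-values measure the spread between libraries, which may be technical. The cells were bulk populations, in which fewer cells of a type and less RNA per cell cannot be told apart. Each library held between 16146718 and 23576469 counts, and the closest pair of a group had a chi-square of 16.6 for each degree of freedom, so replicates differed beyond counting noise. All 7 epithelial markers listed were tested, with summed levels of 2498 to 3847 CPM (counts scaled to a common library total) in sh-NC and 3266 to 4236 CPM in sh-IGF2BP3 libraries, whereas the 5 leukocyte markers together stayed between 0.458 and 1.17 CPM and the 4 endothelial markers between 1.36 and 4.86 CPM. Of 6 fibroblast markers 2 were tested, and the sums of 27.3 to 59.9 CPM came mostly from COL1A1. The epithelial sums came mostly from KRT8, and the single epithelial markers differed in sign. CDH1 and EPCAM had log2 fold changes of -0.47 and -0.10, while KRT8, KRT18, KRT19, CLDN4 and CLDN7 were above 0. For CDH1 every knockdown library was below every control, which held for 11% of all genes.

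IGF2BP3 itself, the target of the shRNA, was at 90.3, 84.1 and 70.3 CPM in the control libraries and at 60.2, 52.3 and 55.8 CPM in the knockdown libraries, so the groups did not overlap. Its log2 fold change was -0.54 ± 0.18 (SE, n = 3 libraries per group, adjusted p = 0.126, edgeR quasi-likelihood test with Benjamini-Hochberg adjustment; two-sided exact permutation p = 0.1, the smallest that 3 against 3 libraries allow). The levels of a library deviated from the others in step with the GC content and the length of the genes, and once these trends were removed the value was -0.22 and the groups overlapped. The shRNA sequence below, 19 bases, was present in full in IGF2BP3 transcripts and in 0 of the 48 genes' transcripts, where the longest shared run was 11 bases, in NDUFAF5.

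sh-IGF2BP3: GGCTCAGGGAAGAATTTAT

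Most complex I transcripts were more abundant in the sh-IGF2BP3 libraries, but no single gene passed the test after adjustment. The median log2 fold change over the 47 tested genes was 0.52, against -0.0145 over all 16753 genes, and 39 of the 47 values were above 0. A gene was called where the fold change exceeded 1.5 and the adjusted p was under 0.05. By edgeR, 0 of the 47 were called higher and 0 lower, as were 0% of all genes in either direction. At an unadjusted p under 0.05, 24 of the 47 (51.1%) were higher and 0 were lower, against 13.6% and 8.54% of all genes tested. The sh-IGF2BP3 libraries all lay above the sh-NC libraries for 14 of the 47 (29.8%) and all below for 0, where the background was 13.2% and 11%. DESeq2, with the same thresholds, called 8 of the 45 genes that it gave an adjusted p higher (17.8%) and 0 lower, against 4.29% and 1.05% of all genes. The 8 were NDUFS7, NDUFA2, NDUFAB1, NDUFB4, NDUFB7, NDUFB10, NDUFAF3 and NDUFAF8.

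The difference was carried unevenly by the libraries. Measured as log2 CPM against each gene's own mean, the 47 genes deviated by a median of -0.06, -0.21 and -0.50 in the 3 control libraries, and by 0.28, 0.52 and -0.04 in the 3 knockdown libraries, each in order of replicate number. Thus sh-IGF2BP3 2 was highest and sh-NC 3 lowest, while sh-IGF2BP3 3 and sh-NC 1 were almost level. Gene by gene, sh-IGF2BP3 2 held the highest value for 35 of the 47 genes and sh-NC 3 the lowest for 30. The library sh-IGF2BP3 3 was above sh-NC 1 for 19 genes, above sh-NC 2 for 33 and above sh-NC 3 for 39. As a share of all counts, the 48 genes took 0.142%, 0.135% and 0.122% in the sh-NC libraries and 0.179%, 0.201% and 0.143% in the sh-IGF2BP3 libraries. Without sh-NC 1, edgeR called 20 of the genes higher (10% of all genes), and without sh-IGF2BP3 3 it called 4 (1.23% of all genes). With no filter on low counts, 11 of the genes were called higher (1.89% of all genes).

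**Figure D1:**
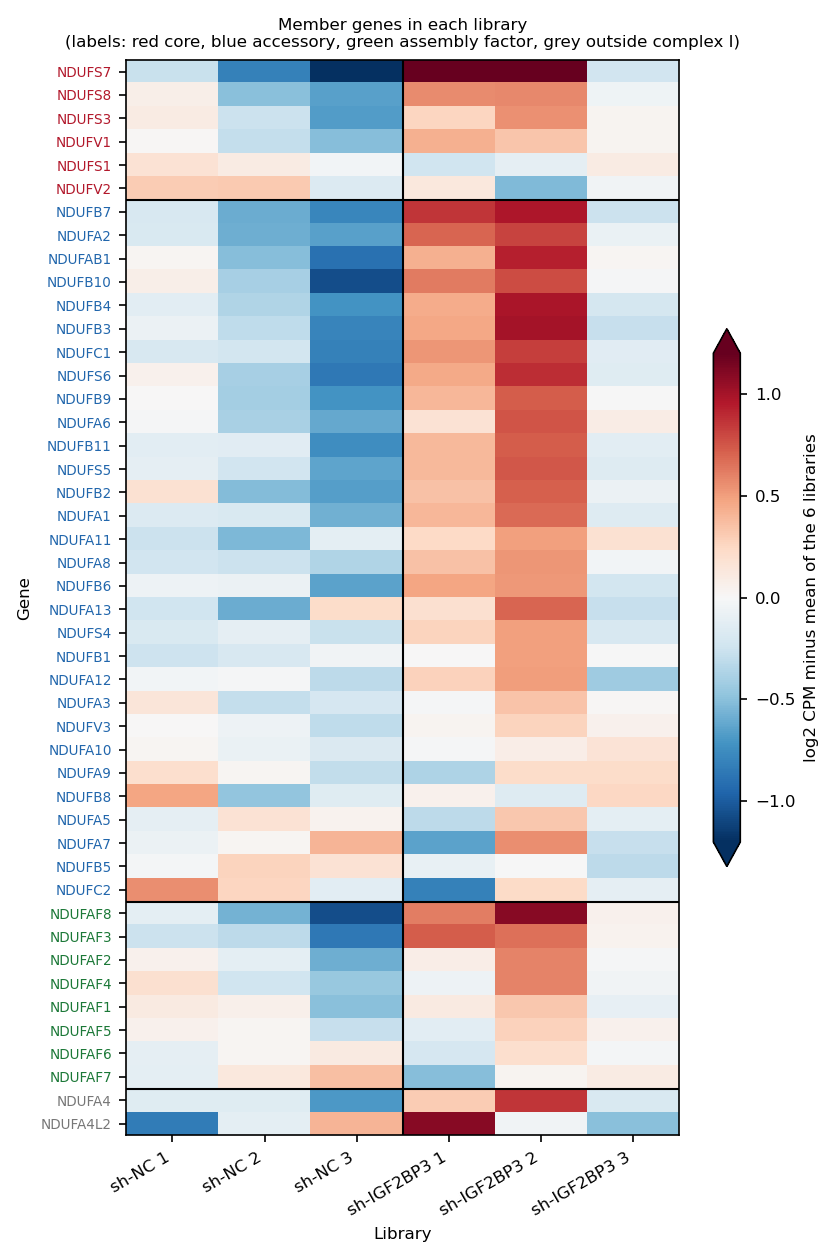
Heat map of 46 of the 47 tested genes (rows, ordered within class by fold change) in the 6 libraries (columns). Color gives log2 CPM minus the gene's mean over the 6 libraries, on a scale clipped at both ends. The column of sh-IGF2BP3 2 is the reddest and that of sh-NC 3 the bluest, with medians of 0.52 and -0.50 over all 47, and sh-IGF2BP3 3 resembles sh-NC 1 in most rows.

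The promoters of 6 members are printed here because these genes lie at both ends of the fold changes: NDUFS7, NDUFB7, NDUFAF8 and NDUFAF3 had some of the largest differences, and NDUFV2 and NDUFAF7 were lower in the sh-IGF2BP3 mean. Each runs from 120 bases before to 30 bases after the start of a RefSeq transcript on GRCh38.p14, in the direction of transcription. Capitals mark 3 motifs searched on both strands, in letters GCGCANGCG (the core of an NRF1 site), CCGGAAG (the core of an ETS site, bound by GABP among others) and AAGATGGC (the core of a YY1 site). NRF1, GABP and YY1 are transcription factors known to act on many genes of the respiratory chain. The regions are chr19:1383787-1383936 on the plus strand for NDUFS7, chr19:14572037-14572186 on the minus strand for NDUFB7, chr17:81239191-81239340 on the plus strand for NDUFAF8, chr3:49020332-49020481 on the plus strand for NDUFAF3, chr18:9102579-9102728 on the plus strand for NDUFV2 and chr2:37231538-37231687 on the plus strand for NDUFAF7.

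NDUFS7: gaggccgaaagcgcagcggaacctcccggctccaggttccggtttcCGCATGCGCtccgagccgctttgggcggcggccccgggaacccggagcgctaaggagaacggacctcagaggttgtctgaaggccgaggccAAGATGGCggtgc
NDUFB7: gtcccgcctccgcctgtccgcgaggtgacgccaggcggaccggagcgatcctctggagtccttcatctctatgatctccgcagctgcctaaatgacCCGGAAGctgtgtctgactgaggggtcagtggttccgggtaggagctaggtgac
NDUFAF8: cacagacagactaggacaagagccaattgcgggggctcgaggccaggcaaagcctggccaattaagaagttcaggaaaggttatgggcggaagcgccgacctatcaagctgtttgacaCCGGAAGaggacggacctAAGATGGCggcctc
NDUFAF3: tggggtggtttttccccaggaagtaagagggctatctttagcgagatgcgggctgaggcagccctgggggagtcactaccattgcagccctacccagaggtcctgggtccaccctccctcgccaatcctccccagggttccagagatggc
NDUFV2: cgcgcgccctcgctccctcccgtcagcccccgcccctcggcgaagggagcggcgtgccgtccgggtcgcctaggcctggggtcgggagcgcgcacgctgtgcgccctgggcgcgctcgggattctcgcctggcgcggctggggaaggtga
NDUFAF7: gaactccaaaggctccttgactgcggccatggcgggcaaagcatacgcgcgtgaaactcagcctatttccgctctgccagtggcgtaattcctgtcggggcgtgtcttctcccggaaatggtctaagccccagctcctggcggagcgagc

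The NDUFS7 promoter held the NRF1 core 74 bases before the start, read on the opposite strand, and the YY1 core from base 17 after it, and the NDUFAF8 promoter held the ETS core 2 bases before the start and the YY1 core from base 16. NDUFB7 held the ETS core 24 bases before the start, and the windows of NDUFAF3, NDUFV2 and NDUFAF7 held none of the 3. Over windows of 300 bases, 40 of the 48 genes had a RefSeq promoter. The NRF1 core occurred in 11 of the 40 (27.5%), against 8.1% of 27305 promoters and 14.4% of those of tested genes. The YY1 core occurred in 7 (17.5%), against 3.05% and 5.21%. The ETS core also occurred in 7 (17.5%), against 10.7% and 18.5%. The median log2 fold change was 0.58 in the 11 genes with the NRF1 core and 0.53 in the 28 tested genes without it. It was 0.54 in the 7 with the ETS core and 0.53 in the 32 without, and 0.40 in the 7 with the YY1 core and 0.54 in the 32 without. These differences were not tested. Such a match is a description of letters and not evidence of binding.

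Among the 7 core subunits, 5 were higher in the sh-IGF2BP3 mean and 2 were lower, and none was called by edgeR. The median log2 fold change was 0.52, with a range from -0.29 to 1.67, and the groups were separate for 3, NDUFS7 and NDUFV1 among them (13.2% of all genes). Without sh-NC 3 the median was 0.34. After removal of the trends it was 0.32, and the groups of 1 core subunit were separate (8.49% of all genes). NDUFS7 carries the last iron-sulfur cluster before ubiquinone. Its level was 8.41, 5.78 and 4.14 CPM in the controls and 24.4, 25.2 and 8.63 CPM in the knockdown libraries, from 81 to 427 counts per library. The first 2 knockdown libraries were well above every other library, and the third exceeded sh-NC 1 only narrowly. The log2 fold change of NDUFS7 was 1.67 ± 0.37 (SE, n = 3 per group, adjusted p = 0.103 by edgeR, 0.00317 by DESeq2), the largest of the 47. With the GC and length trends removed it was 1.29 and the groups overlapped. With the trends of the principal transcript removed instead, a step added after seeing the data, it was 0.84 and the groups were separate. Of the NDUFS7 gene on chromosome 19 (1383527 to 1395589, plus strand, GRCh38), 63.1% is overlapped by genes on the opposite strand, mainly the lncRNA ENSG00000280486, and whether counting used strand is not stated, so reads of the 2 genes may not have been separated.

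NDUFS8, which carries iron-sulfur clusters next to NDUFS7, was at 38.8, 26.1 and 23.5 CPM in the control and 54.7, 55.3 and 35.6 CPM in the knockdown libraries. Only sh-IGF2BP3 3 lay within the control range (log2 fold change 0.72 ± 0.23, SE, adjusted p = 0.124 by edgeR). NDUFS8 was at 0.41 without the GC and length trends, and at -0.01 when those trends were taken from the principal transcript, an alternative that was added once the data had been seen. NDUFV1, the subunit that binds NADH and flavin, was at 108.9, 88.5 and 75.9 against 144.8, 136.2 and 110.5 CPM. Its groups were separate by a small margin, with a log2 fold change of 0.52 ± 0.20 (SE, adjusted p = 0.15 by edgeR). They overlapped once the trends were removed, when the value of NDUFV1 was 0.17. NDUFS3, a core subunit without a cofactor, was at 53.3, 41.6 and 31.2 against 59.4, 73 and 50.8 CPM, overlapping only through sh-IGF2BP3 3 and sh-NC 1 (0.54 ± 0.22, SE, adjusted p = 0.172 by edgeR), and the value was 0.32 with the trends removed.

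NDUFS1 and NDUFV2 had values on the opposite side. NDUFS1, the largest core subunit and a carrier of iron-sulfur clusters, was at 179.8, 171.3 and 156.5 CPM in sh-NC and 135.4, 148.5 and 171.2 CPM in sh-IGF2BP3 libraries, a log2 fold change of -0.16 ± 0.18 (SE, adjusted p = 0.63 by edgeR) that turned to 0.16 with the trends removed. NDUFV2, the iron-sulfur partner of NDUFV1, was at 6.66, 6.69 and 4.8 against 5.89, 3.73 and 5.22 CPM. Its groups overlapped widely (-0.29 ± 0.30, SE, adjusted p = 0.585 by edgeR). NDUFV1 and NDUFV2 are partners in the NADH-oxidizing tip of the complex, and their fold changes had opposite signs in this fit. NDUFV2 was read from 57 to 162 counts per library. A lncRNA on the same strand overlaps 99.7% of NDUFV2, so its counts are uncertain.

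**Figure D2:**
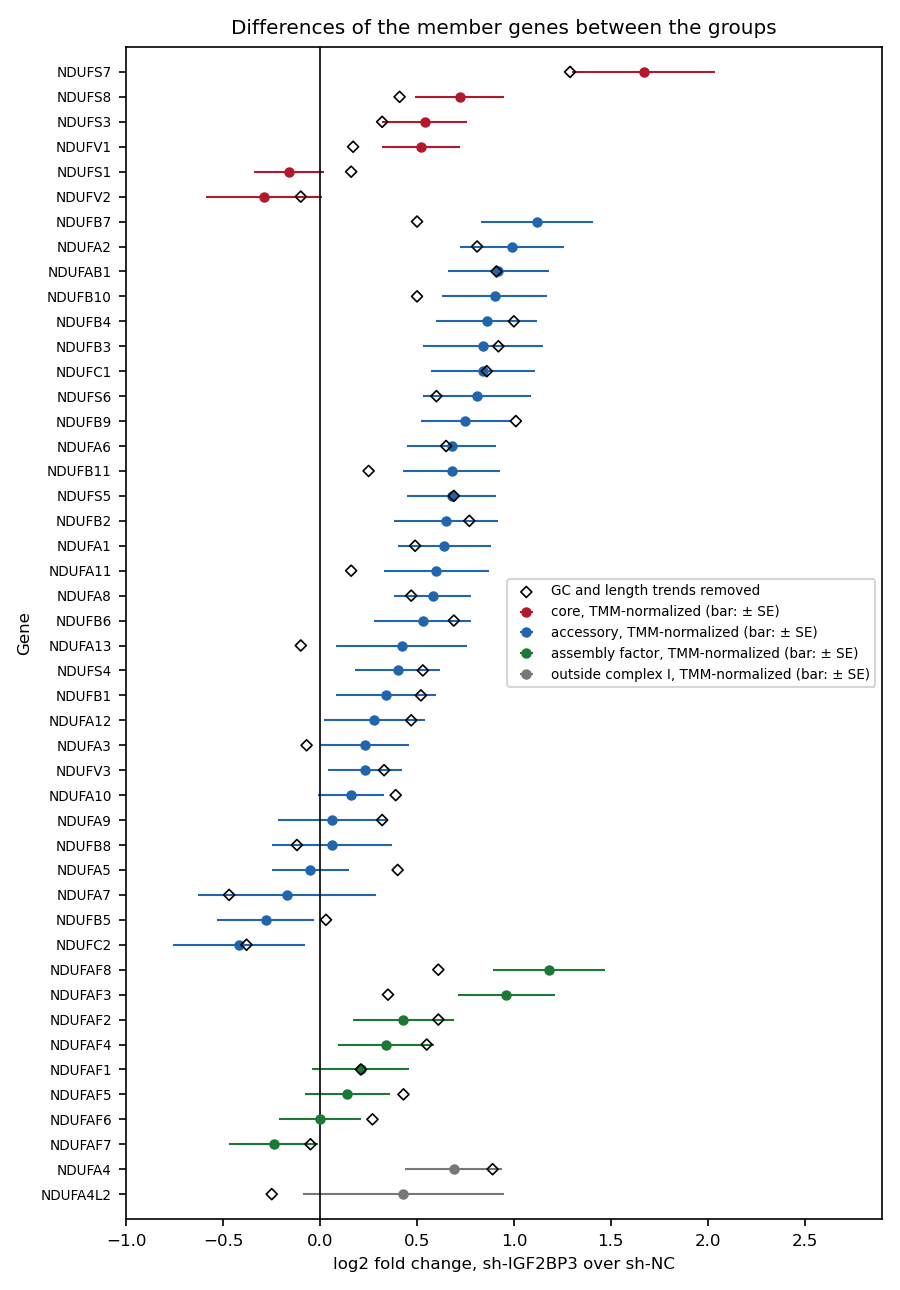
Log2 fold change of sh-IGF2BP3 over sh-NC for 46 of the 47 tested genes, grouped by class. Filled circles with bars give the edgeR value ± SE from 3 libraries per group, and open diamonds the value with each library's GC and length trends removed. In the first fit 38 of 46 circles lie right of 0, from -0.42 for NDUFC2 to 1.67 for NDUFS7.

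The 30 accessory subunits had a median log2 fold change of 0.59, and 26 were above 0. An unadjusted p under 0.05 was found for 17, all higher, against 13.6% of all genes, and the groups of 9 were separate, against 13.2%. The subunits of the membrane arm had a median of 0.62 over 20 genes, with 18 above 0, and the core and accessory subunits of the matrix arm 0.36 over 16 genes, with 12 above 0. With the trends removed these medians were 0.49 and 0.37. They were 0.23 and 0.21 with the trends of the principal transcript removed instead, a step chosen after seeing the data. The gap between the arms is given as a description and was not tested.

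NDUFB7, a cysteine-rich subunit on the intermembrane space side of the membrane arm, was at 16, 12.1 and 10.6 CPM in sh-NC and 33, 35.6 and 15.2 CPM in sh-IGF2BP3 libraries. Again sh-IGF2BP3 3 stayed within the control range (log2 fold change 1.12 ± 0.29, SE, adjusted p = 0.103 by edgeR, 0.02 by DESeq2), and the value was 0.50 with the trends removed. NDUFA2, a thioredoxin-like subunit of the matrix arm, was at 13, 9.83 and 9.4 against 24, 26 and 14 CPM. Its groups were separate (0.99 ± 0.27, SE, adjusted p = 0.103 by edgeR) and remained separate at 0.81 with the trends removed, although TMCO6 and another gene on the opposite strand overlap 74% of it. NDUFAB1, the mitochondrial acyl carrier protein, was at 59.9, 41.1 and 31.6 against 79, 112.3 and 59.6 CPM. The overlap came from sh-IGF2BP3 3, which was just under sh-NC 1. The gene had a log2 fold change of 0.92 ± 0.26 (SE, adjusted p = 0.104 by edgeR), or 0.91 with the trends removed.

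NDUFB10, another cysteine-rich subunit of the membrane arm, was at 50.3, 36.4 and 23 CPM in sh-NC and 73.8, 82.8 and 47.6 CPM in sh-IGF2BP3 libraries (0.90 ± 0.27, SE, adjusted p = 0.112 by edgeR). NDUFB4, a membrane arm subunit, was at 32.2, 27.4 and 21.5 against 47.9, 69.3 and 30.4 CPM (0.86 ± 0.26, SE, adjusted p = 0.116 by edgeR). For both genes 2 knockdown libraries stood above all controls and sh-IGF2BP3 3 did not. With the trends removed, NDUFB10 came to 0.50 and NDUFB4 to 1.00. NDUFB9, a subunit of the LYR family, was at 102.3, 77.2 and 62.4 against 134.7, 169.2 and 101.9 CPM, with the same order of libraries (0.75 ± 0.23, SE, adjusted p = 0.116 by edgeR).

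At the other end, NDUFC2, a membrane arm subunit, was at 5.76, 4.67 and 3.58 CPM in sh-NC and 2.23, 4.58 and 3.63 CPM in sh-IGF2BP3 libraries. Only sh-IGF2BP3 1 was below all the controls, and the log2 fold change of -0.42 ± 0.34 (SE, adjusted p = 0.475 by edgeR) was the lowest of the 47. NDUFB5, also of the membrane arm, was at 8.97, 11 and 10.3 against 8.58, 9.09 and 7.33 CPM (-0.28 ± 0.25, SE, adjusted p = 0.521 by edgeR). NDUFA7, of the matrix arm, was read from 10 to 23 counts per library, 0.847, 0.909 and 1.18 against 0.572, 1.31 and 0.738 CPM (-0.17 ± 0.46, SE, adjusted p = 0.848 by edgeR), so a difference was not detectable at this depth. NDUFA5, of the matrix arm, was at 38, 46.2 and 42.3 against 33, 51.1 and 37.7 CPM (-0.05 ± 0.20, SE, adjusted p = 0.894 by edgeR). With the trends removed NDUFA5 turned to 0.40 and every knockdown library was above every control, and NDUFB5 turned to 0.03 with overlapping groups. With the principal transcript trends removed instead, the groups of both genes overlapped, at 0.14 for NDUFA5 and -0.22 for NDUFB5. The remaining 20 accessory subunits all had log2 fold changes above 0, from 0.06 to 0.84, of which 11 had an unadjusted p under 0.05 (13.6% of all genes) and 8 had separate groups (13.2% of all genes), with adjusted p between 0.122 and 0.93 by edgeR.

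NDUFAF8 and NDUFAF3 had the largest differences among the 8 assembly factors. NDUFAF8 was at 17, 12.4 and 8.79 CPM in sh-NC and 28.1, 39.2 and 19.1 CPM in sh-IGF2BP3 libraries. The groups did not overlap (1.18 ± 0.29, SE, adjusted p = 0.103 by edgeR, 0.0134 by DESeq2), and they stayed apart at 0.61 with the trends removed. NDUFAF8 stabilizes NDUFAF5, the enzyme that hydroxylates an arginine of NDUFS7. NDUFAF5 was at 17.3, 17 and 13.8 against 15.3, 20.2 and 17.3 CPM, and its groups overlapped (0.14 ± 0.22, SE, adjusted p = 0.749 by edgeR). NDUFAF3, which works with NDUFAF4 on the module that holds the ubiquinone site, was at 14.8, 14.2 and 9.71 against 29.2, 27.9 and 18.2 CPM. These groups were separate too (0.96 ± 0.25, SE, adjusted p = 0.103 by edgeR, 0.0206 by DESeq2) and remained so at 0.35 with the trends removed, while genes on the opposite strand, mainly DALRD3, overlap 60.4% of NDUFAF3. NDUFAF4 was at 23.8, 17.6 and 15.2 against 19.9, 31.5 and 20.2 CPM, and only sh-IGF2BP3 2 exceeded every control (0.34 ± 0.25, SE, adjusted p = 0.436 by edgeR).

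Before removal of the trends, the groups overlapped for the remaining assembly factors. NDUFAF2, which takes part in attaching the NADH-oxidizing module, was at 13.8, 12.3 and 8.89 CPM in sh-NC and 14.1, 20.1 and 13.2 CPM in sh-IGF2BP3 libraries (0.43 ± 0.26, SE, adjusted p = 0.331 by edgeR). NDUFAF1, of the complex that assembles the membrane arm, was at 14.8, 14.3 and 9.66 against 14.8, 17.2 and 12.8 CPM (0.21 ± 0.25, SE, adjusted p = 0.644 by edgeR). In both genes sh-NC 3 was the lowest library, and at least 1 other control lay within the knockdown range. NDUFAF6, an early assembly factor, was at 19, 20.8 and 22 against 17.8, 23.5 and 20.2 CPM, a log2 fold change of -0.00 ± 0.21 (SE, adjusted p = 0.991 by edgeR). NDUFAF7, an arginine methyltransferase, was at 19.2, 22.7 and 26.6 against 14.6, 21.3 and 22.3 CPM (-0.24 ± 0.23, SE, adjusted p = 0.561 by edgeR), the only assembly factor with sh-NC 3 as its highest library. The class median was 0.27, and 0.39 with the trends removed, when 4 of the 8 genes had separate groups (8.49% of all genes). These were NDUFAF3, NDUFAF8, NDUFAF5 at 0.43 and NDUFAF6 at 0.27. With the principal transcript trends removed instead, NDUFAF5 was at 0.46 and separate, and NDUFAF6 at 0.06 with overlapping groups. The class median was 0.10 without sh-NC 3 and 0.095 without sh-IGF2BP3 2.

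Outside complex I, NDUFA4 was at 45.3, 45.4 and 31.2 CPM in sh-NC and 62, 91 and 44.3 CPM in sh-IGF2BP3 libraries, with sh-IGF2BP3 3 just under sh-NC 1 and 2 (0.69 ± 0.25, SE, adjusted p = 0.138 by edgeR). NDUFA4L2 was near the limit of detection, at 8 to 30 counts and 0.451 to 1.72 CPM per library (0.43 ± 0.52, SE, adjusted p = 0.645 by edgeR).

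The fold changes of all genes followed their base composition, which bears on each value above. Over all 16236 tested genes with a known GC content, the log2 fold change had a Spearman correlation of 0.611 with GC content, and over the 47 members it was 0.468 (Pearson 0.5). These are correlations across genes, which share libraries and are not independent replicates. The 47 genes were close to the whole in GC content, with a median of 48.2% against 48.7%, but short, with a median principal transcript of 1039 bases against 3172. In genes of at least 55% GC, the 14 members had a median log2 fold change of 0.64 and all genes 0.41. Between 45% and 55% GC, the 18 members had 0.51 and all genes -0.01, and under 45% GC the 15 members had 0.34 and all genes -0.29. The log2 fold change also fell with the length of the principal transcript, with a Spearman correlation of -0.412 over all 13124 tested genes with such a transcript. Over the 47 members that correlation was -0.388. In bins of 5 percentage points of GC, 40 of the 47 members were above the median of all genes in their bin and 32 (68.1%) above its upper quartile. These bins match GC content alone, so the members were compared with genes that were mostly longer.

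**Figure D3:**
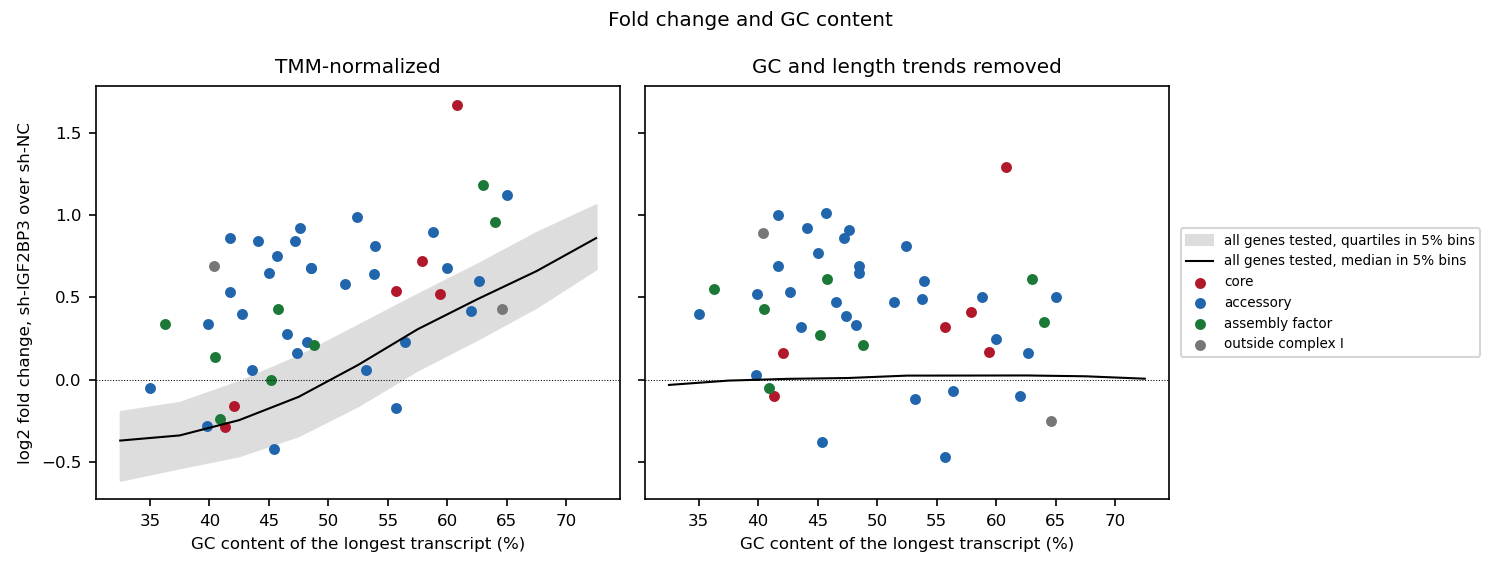
Log2 fold change of sh-IGF2BP3 over sh-NC against the GC content of each gene's longest transcript, before (left) and after (right) each library's GC and length trends were removed. Points are 46 of the 47 tested members colored by class, the line is the median of all tested genes in bins of 5 percentage points, and the grey band on the left spans their quartiles. On the left the line climbs with GC content and 39 of 46 points lie above it.

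After removal of the GC and length trends from each library, the median of the 47 genes was 0.43, and 25 had an unadjusted p under 0.05 and were higher, 0 lower, against 6.86% and 3.59% of all genes. Groups were separate for 15 members higher and 0 lower, against 8.49% and 6.70% of all genes. No member was called, and the lowest adjusted p was 0.415 by edgeR. The medians were then 0.32 for core subunits, 0.49 for accessory subunits and 0.39 for assembly factors, so the order of core subunits and assembly factors changed with this step. When the length and GC content of the principal transcript were used instead, a step chosen after seeing the data, the medians were 0.17, 0.27 and 0.32, and 0.24 over all 47. After the first correction the library medians of the 47 genes were -0.01, -0.19 and -0.50 for the controls and 0.21, 0.45 and -0.02 for the knockdown, so sh-IGF2BP3 3 and sh-NC 1 were again level. How far composition enters the remaining difference was not tested.

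The nuclear genes of the other respiratory complexes were mostly above 0 as well. Of 44 tested genes of complexes II to IV and ATP synthase, 41 were above 0 with a median of 0.55, 29 had an unadjusted p under 0.05 (13.6% of all genes) and 13 had separate groups (13.2% of all genes), all higher. Their medians by complex were 0.16 for complex II with 4 genes, 0.55 for complex III with 10, 0.63 for complex IV with 12 and 0.56 for ATP synthase with 18. The 76 mitochondrial ribosomal proteins had a median of 0.47. Because these groups were read from the same libraries, the order of their library medians is not separate evidence for that of complex I.

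The mitochondrially encoded subunits of complex I were mostly on the other side of 0. Of the 7 ND genes, 5 were below 0 and the median log2 fold change was -0.20. The share of all counts on the mitochondrial chromosome was 6.12%, 7.32% and 7.76% in the sh-NC and 5.24%, 5.47% and 5.89% in the sh-IGF2BP3 libraries, so it was lower in every knockdown library, and its part in these values was not tested. MT-ND4, a proton-pumping subunit, was at 6736, 7126 and 7784 CPM in sh-NC and 4470, 4217 and 5365 CPM in sh-IGF2BP3 libraries (-0.62, adjusted p = 0.122 by edgeR). DESeq2 called MT-ND4 lower (-0.61, adjusted p = 0.0351), 1 of the 7 ND genes against 1.05% of all genes. MT-ND5, likewise a pumping subunit, was at 4910, 5483 and 5408 against 3760, 3559 and 4472 CPM (-0.42, adjusted p = 0.223 by edgeR). For both genes, and for MT-ND6, every knockdown library was below every control, which held for 11% of all genes. MT-ND3 had the opposite sign, at 211.3, 273.9 and 237.2 against 368.1, 464.8 and 234.5 CPM (0.56, adjusted p = 0.177 by edgeR). With the trends removed the median of the 7 was -0.0558 and MT-ND4 was -0.53, while MT-ND6 was at -0.01 and its groups overlapped.

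**Figure D4:**
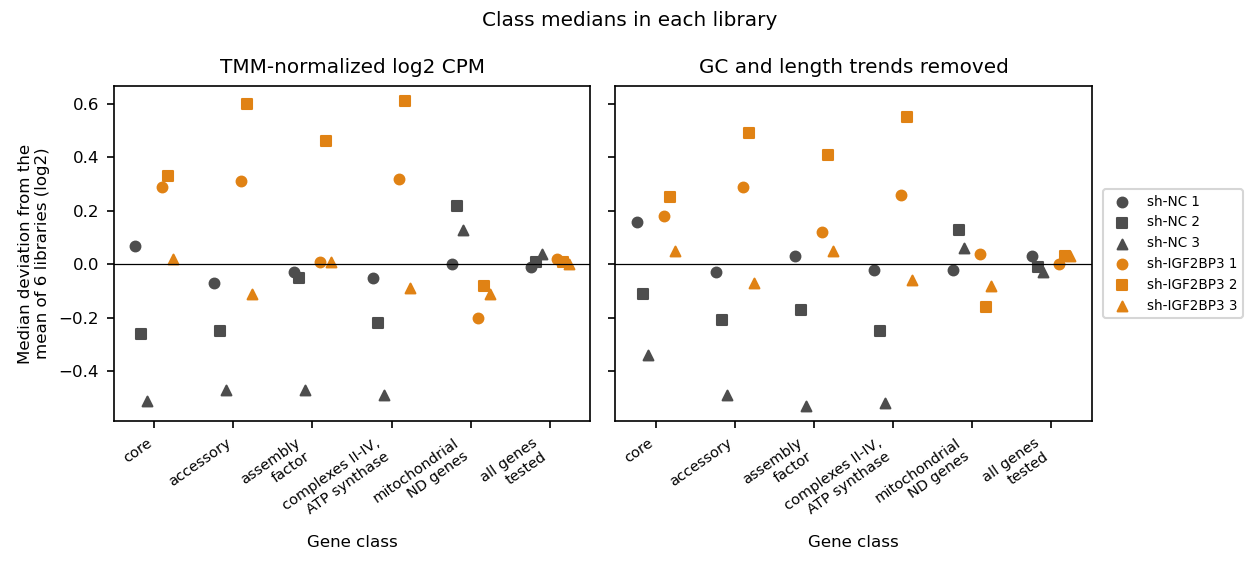
Median deviation from the mean of 6 libraries, in log2, for each class of genes and each library, for TMM-normalized log2 CPM (left) and with GC and length trends removed (right). Grey symbols are sh-NC libraries, orange symbols sh-IGF2BP3 libraries, and the symbol shape gives the replicate number. In the left panel accessory subunits run from -0.47 in sh-NC 3 to 0.60 in sh-IGF2BP3 2, the mitochondrial ND genes have the reverse order of groups, and all genes together stay near 0.

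Assembly factors without an NDUFAF name had a median of 0.24 over 12 genes, with 11 above 0. ECSIT, of the same assembly complex as NDUFAF1, was at 21.6, 16.5 and 12.4 CPM in sh-NC and 31.4, 27.4 and 21.3 CPM in sh-IGF2BP3 libraries (0.67, adjusted p = 0.143 by edgeR), with sh-IGF2BP3 3 just under sh-NC 1. With the trends removed ECSIT was at 0.26 and its groups overlapped. DMAC1, which assists assembly of the membrane arm, was at 10.8, 7.89 and 7.82 against 16.8, 18 and 8.18 CPM, again with sh-IGF2BP3 3 inside the control range (0.70, adjusted p = 0.191 by edgeR), and was at 0.88 with the trends removed. The 1 gene below 0 was NUBPL, which delivers iron-sulfur clusters to complex I (-0.37, adjusted p = 0.393 by edgeR). DMAC2 alone of the 12 had separate groups (0.37, adjusted p = 0.264 by edgeR), against 13.2% of all genes. With the trends removed DMAC2 was at 0.21 and its groups overlapped. Of 9 tested transcription factors and coactivators of respiratory genes, the median was 0.17. ESRRA, a nuclear receptor that drives respiratory genes, was at 46, 32.6 and 28.6 against 77.4, 66.1 and 44.6 CPM (0.81, adjusted p = 0.109 by edgeR, 0.0421 by DESeq2, which called it higher), and 0.25 with the trends removed. Its sh-IGF2BP3 3 value lay within the control range. DESeq2 called 1 of the 9 higher, against 4.29% of all genes. NRF1 was at 28.3, 33.3 and 25.5 against 34.4, 32.6 and 30.8 CPM, with overlapping groups (0.17, adjusted p = 0.63 by edgeR).

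Levels of different members can be compared per length, as FPKM. Over the 45 complex I genes the mean FPKM of the 6 libraries ran from 0.665 for NDUFA7 to 139.0 for NDUFS5, a 209.0-fold span, although most subunits occur once in each complex. The core subunits ran from 1.68 to 21.7 FPKM. Among them NDUFS7 was at 0.828 FPKM in the sh-NC and 2.54 FPKM in the sh-IGF2BP3 mean, and NDUFV1 at 18.3 and 25.1 FPKM. The gene length behind FPKM exceeded the principal transcript by over 5 times in 9 of the members, among them NDUFB9, with 16591 against 711 bases. On a scale of CPM per kilobase of principal transcript the span was 178.3-fold and NDUFB9 moved from rank 24 to rank 1 of 47.

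The lowest levels belonged largely to genes that are overlapped by a readthrough or other gene on their own strand. The 8 members NDUFA7, NDUFA9, NDUFA11, NDUFA13, NDUFB5, NDUFB8, NDUFC2 and NDUFV2 had at least 90% of their length covered in this way. They were at 0.665 to 2.52 FPKM with a median of 1.57, and their median log2 fold change was -0.06, with 4 of 8 above 0 and 1 with separate groups. The other 39 had a median of 8.52 FPKM and a median log2 fold change of 0.58, with 35 above 0 and 13 with separate groups. The share of all genes with separate groups, higher, was 13.2%. So 4 of the 8 members with a fold change below 0 were among these overlapped genes. Their counts are uncertain, since the tables do not show how reads shared by overlapping genes were assigned, and the part of this in their values was not tested. Reads on pseudogenes named after members were few, 373 counts on 63 pseudogenes against 169321 counts on the members.

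**Figure D5:**
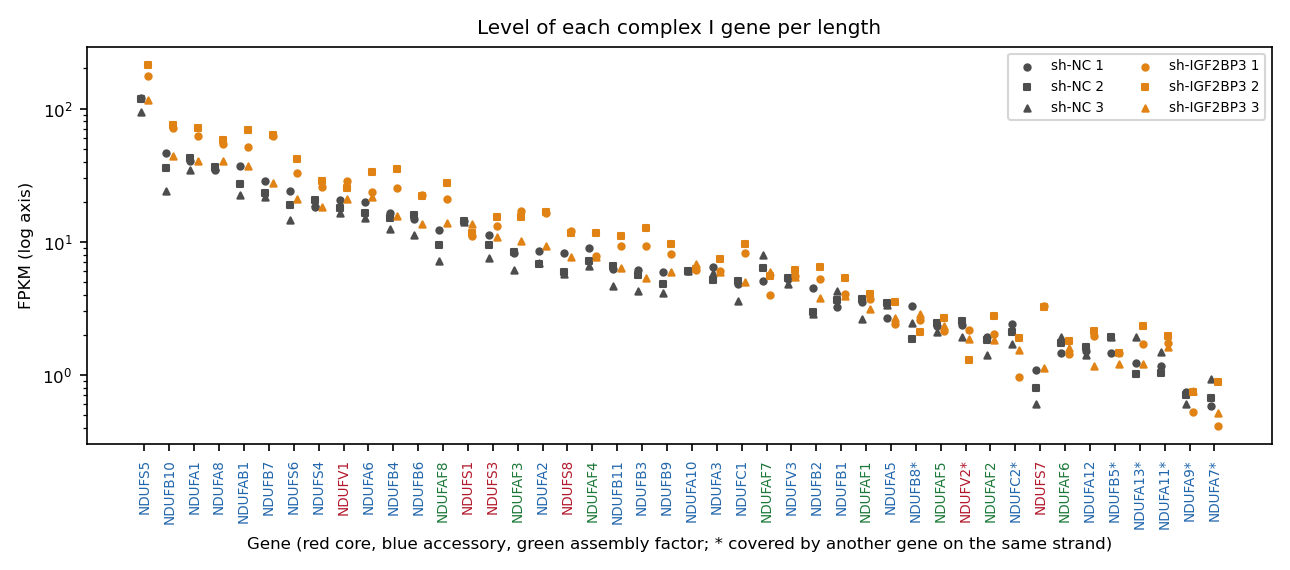
FPKM of 44 of the 45 complex I genes in each of the 6 libraries, on a log axis, ordered by mean level. Grey symbols are sh-NC and orange symbols sh-IGF2BP3 libraries, and an asterisk marks genes with at least 90% of their length covered by another gene on the same strand. NDUFS5 is highest at 139.0 FPKM on average, and all 8 marked genes lie in the lower part, at 0.665 to 2.52 FPKM.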

How the data were processed

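Total RNA from 6 HCT116 samples, 3 sh-NC and 3 sh-IGF2BP3, was sequenced, and the groups were taken from the sample titles. The authors deposited whole-number counts per gene and FPKM values for 62710 Ensembl genes. Each deposited FPKM value is the count over the library total and over 1 gene length, shared by all libraries. The submitters' processing notes name CASAVA and GRCh38, while the aligner, counter, annotation release and use of strand are not given in the sources used here. The main test ran in edgeR 4.0.16 under R 4.3.3 (filterByExpr defaults, TMM, glmQLFit and glmQLFTest, two-sided, Benjamini-Hochberg adjustment over 16753 genes), with DESeq2 1.42.0 and limma 3.58.1 on log2 FPKM as alternatives, beside other normalizations and filters, a replicate block and each library left out in turn. A fold change over 1.5 with an adjusted p under 0.05 counted as a call, the thresholds of the study. CPM are TMM-normalized, marker sums and shares excepted, and log2 CPM used a prior count of 2. Trends with GC content and gene length were modelled per library as splines (5 degrees of freedom) of log2 CPM minus the gene's mean, and entered as offsets. The longest GENCODE 29 transcript gave the GC content, the deposited FPKM the gene length, and RefSeq the promoters.

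The members, lists and alternatives were chosen with earlier results of these data known, so medians and counts over members carry no p-value. Values per library are given for the core subunits (1 is counted in the totals but not reported here), all NDUFAF genes, genes outside complex I, the 6 accessory subunits with the smallest p and the 4 with the lowest fold change, and from other lists for up to 6 genes with a p under 0.05 or separate groups. NRF1, DMAC2, NUBPL, MT-ND6 and the fold changes of single epithelial markers were added after their values were seen. The tests were tested on simulated data. Precision was limited by 3 libraries per group.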

Additional observations from a re-analysis of the deposited data

How the results depend on the processing

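The median log2 fold changes stayed above 0 for each class under every alternative run. For all 47 members the median was 0.24, for accessory subunits 0.27 and for core subunits 0.17 with the principal transcript trends removed (chosen after seeing the data), and for core subunits 0.25 with the GC trend alone removed. Members called higher numbered 8 by DESeq2 and 11 with no filter on low counts, and 0 to 20 when 1 library was left out. Members with separate groups, higher, numbered up to 29 without sh-NC replicate 1 or sh-IGF2BP3 replicate 3, and lower 0 to 4 when 1 library was left out. Over all genes those shares were 24.3% and 21.7% for higher without these 2 libraries, and 13.3% to 25.2% for lower over the 6 left out in turn. Under DESeq2 factors, RLE, upper-quartile, both filters, both FPKM scales and principal transcript trends, 1 member was separate and lower, NDUFB5, NDUFS1 or NDUFA7. Over all genes, DESeq2 called 562 higher and 137 lower, the unfiltered test 687 and 150, edgeR without sh-NC replicate 1 1739 and 985, and without sh-IGF2BP3 replicate 3 214 and 14, against 0 and 0 with all libraries.

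Across the alternatives, 417 values of single genes kept their sign and side of the thresholds, 34 kept their sign and passed them, and 30 changed sign. Genes of small fold change and also NDUFS8 and NDUFA4L2, at 0.72 and 0.43, changed sign in some settings. With the GC and length trends removed, NDUFS1 was 0.16, NDUFAF6 0.27, NDUFA5 0.40, NDUFB5 0.0269 and NDUFA4L2 -0.25. With the GC trend alone removed, NDUFS1 was 0.0777, NDUFAF6 0.16, NDUFA5 0.31, NDUFB5 0.0309, NDUFAF7 0.0309 and NDUFA4L2 -0.20. With principal transcript trends removed, NDUFS1 was 0.24, NDUFAF6 0.0582, NDUFA5 0.14, NDUFS8 -0.0122 and NDUFA4L2 -0.28. NDUFAF6 was 0.0102 by DESeq2 and 0.00828 with no filter. When 1 library was left out, NDUFAF6 ran from -0.11 to 0.0907, NDUFA5 from -0.25 to 0.0769, NDUFA7 from -0.57 to 0.0599 and NDUFA4L2 from -0.17 to 0.73. The cause was not tested.

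Same-numbered samples did not deviate together (correlations -0.284, -0.186 and -0.0433), so replicate numbers were not taken as pairs, although the study speaks of pairs of control and knockdown cells. With a replicate block the median over all members was 0.52, 0 members were called and 3265 genes had an unadjusted p under 0.05, against 3714 without it. With the replicate block and the trends removed, NDUFS1 was 0.17, NDUFAF6 0.25, NDUFA5 0.39, NDUFB5 0.0155 and NDUFA4L2 -0.24.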
